A study of Rattus norvegicus with 84 samples.

Results

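The proteasome genes of the rat hippocampus were examined on 84 Illumina bead arrays. Members were chosen by symbol, as every probe of the platform's probe-to-gene table whose symbol begins with Psm, a letter from a to g and a digit, and that were detected, with a p-value below 0.01, on 7 or more of the 84 arrays. Of the 22523 probes on the array, 44 matched by symbol and 42 of these passed on detection, among 11403 probes that passed in all. One of the 42, Psmc3ip, matches by its letters only; it encodes a recombination factor and was kept apart. The remaining 41 probes stand for 40 proteasome genes, because Psmb10 has a brighter and a dimmer probe; the brighter one stands for Psmb10 in counts of genes. Psma8, an alpha subunit of the testis, and Psmb11, a beta subunit of the thymus, were detected on 0 arrays. The least often detected members were Psma3, on 57 arrays, Psmb9 on 69, Psmd8 on 78 and Psmd13 on 83, so none lay close to the limit of 7, and the other members were detected on all 84. No probe carries the names Psmd10, Psmd14, Psme3, Psmf1, Psmg3 or Psmg4.

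The proteasome is the protease that degrades proteins tagged with ubiquitin. Its core particle is a barrel of 2 outer alpha rings, which gate the entry pore, and 2 inner beta rings, which hold the proteolytic sites. The regulatory particle caps the barrel: a ring of ATPases unfolds the substrate and threads it into the core, non-ATPase subunits bind ubiquitin, and a lid helps to remove the ubiquitin chain. Other caps can replace the regulatory particle, interferon can exchange the catalytic beta subunits for inducible ones, and dedicated chaperones assemble the rings. In neurons, proteasome activity is known to be needed for lasting synaptic change and for the storage of memory.

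The rats were male F344xBN hybrids, 7 months old, and tissue came from 3 freshly dissected hippocampal subfields, labelled CA1, CA3 and DG (dentate gyrus). All 28 rats were injected intraperitoneally and killed 90 min later. Rats of the SAHA groups received SAHA (suberoylanilide hydroxamic acid), an inhibitor of histone deacetylases, at 50 mg/kg in 100% DMSO, and vehicle rats received DMSO alone. From 10 min after injection, RPC rats swam 17 trials of a redundant place/cue water maze, including a 60 s probe trial; they had learned the maze over 8 days a week earlier. Home cage rats had neither the session nor the training, so a difference between RPC and home cage rats includes both. This gives 4 groups (vehicle home cage, SAHA home cage, vehicle RPC and SAHA RPC) with 7 arrays each under every region label, which is taken as 1 array per rat and labelled region because the labels give 28 rats; they do not tie an array to a rat. Levels are log2 of background-corrected, quantile-scaled bead intensity, and a gene is called where limma's p-value, adjusted by Benjamini-Hochberg over the 11403 probes, was under 0.05. A level is compared only with the same probe's level on other arrays.

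Most marker genes went against the labels CA1 and DG. Of the 8 measured CA1 pyramidal genes, 6 had their highest median level on arrays labelled DG, 1 (Htr1a) on arrays labelled CA1 and 1 (Dkk3) on arrays labelled CA3. Of the 5 granule cell genes, 4 were highest on arrays labelled CA1 and 1 (Pkp2) on arrays labelled CA3, where all 5 CA3 genes were highest too. C1ql2, a gene of dentate granule cells, had its highest median level on arrays labelled CA1 (11.21, against 7.01 on arrays labelled CA3 and 8.86 on arrays labelled DG), and Prox1, the transcription factor that defines granule cells, was detected on 28 of 28 arrays labelled CA1, on 0 labelled CA3 and on 4 labelled DG. The CA1 pyramidal genes Wfs1 and Ccn3 were highest on arrays labelled DG, with medians of 10.69 and 12.32, against 6.72 and 8.41 on arrays labelled CA1, while Htr1a, also a CA1 gene, went the other way. The CA1 genes Mpped1, Man1a1 and Fibcd1 were detected on 0 arrays labelled CA1. Nectin3, a CA3 gene, was highest on arrays labelled CA3 (8.60, against 6.86 and 5.80). Regions are therefore called by their labels throughout, as "labelled CA1" and so on, and a value under one label is not assigned to that anatomical subfield. On average 42.0% of probes were detected on arrays labelled CA1, 44.0% on those labelled CA3 and 46.4% on those labelled DG, and the mean raw signal per array lay between 428 and 905. Of the 84 arrays, 10 correlated poorly with the others of their region (3 labelled CA1, 7 labelled CA3, of which 4 were vehicle RPC and 3 SAHA RPC); the vehicle RPC array 6 labelled CA3 was the farthest, and on it 35 of the 40 genes lay outside the range of the other 6 arrays of its group. No pair of arrays was a duplicate.

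Promoter sequences are shown for the 4 genes that fell after the maze session in vehicle rats under the CA1 label. They are the genes called in that comparison, all in 1 direction, with the brighter probe standing for Psmb10. The dimmer Psmb10 probe was called lower too. The sequences come from RefSeq, in build GRCr8, which gives 37 of the 40 genes (not Psma7, Psmd6 and Psmd12). They run from 250 bases before to 50 after the annotated start, written on the gene's strand. Capitals mark the motifs searched on both strands, CCAAT (the CCAAT box; ATTGG when it lies on the other strand) and TGACNNNGC (the core of the antioxidant response element, to which NFE2L1 and NFE2L2 bind).
Psma5 (chr2:198584255-198584554, plus strand): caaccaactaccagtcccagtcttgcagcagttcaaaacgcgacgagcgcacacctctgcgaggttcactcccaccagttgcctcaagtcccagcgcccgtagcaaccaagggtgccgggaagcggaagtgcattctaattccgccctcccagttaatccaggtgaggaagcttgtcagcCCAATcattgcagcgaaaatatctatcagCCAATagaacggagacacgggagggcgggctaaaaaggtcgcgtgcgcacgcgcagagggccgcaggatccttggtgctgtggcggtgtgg
Psma4 (chr8:64236270-64236569, plus strand): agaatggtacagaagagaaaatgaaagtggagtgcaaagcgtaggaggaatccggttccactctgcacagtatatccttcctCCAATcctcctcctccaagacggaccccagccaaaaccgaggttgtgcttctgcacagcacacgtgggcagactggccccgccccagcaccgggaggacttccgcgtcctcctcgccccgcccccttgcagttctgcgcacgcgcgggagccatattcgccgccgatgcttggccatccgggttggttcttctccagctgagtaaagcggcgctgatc
Psma2 (chr17:55260392-55260691, minus strand): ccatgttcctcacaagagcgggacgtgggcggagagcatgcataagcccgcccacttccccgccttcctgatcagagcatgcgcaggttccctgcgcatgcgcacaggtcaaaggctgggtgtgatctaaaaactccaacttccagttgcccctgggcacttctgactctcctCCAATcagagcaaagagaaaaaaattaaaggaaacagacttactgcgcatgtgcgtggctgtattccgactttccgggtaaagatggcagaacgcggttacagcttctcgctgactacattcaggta
Psmd9 (chr12:39018215-39018514, minus strand): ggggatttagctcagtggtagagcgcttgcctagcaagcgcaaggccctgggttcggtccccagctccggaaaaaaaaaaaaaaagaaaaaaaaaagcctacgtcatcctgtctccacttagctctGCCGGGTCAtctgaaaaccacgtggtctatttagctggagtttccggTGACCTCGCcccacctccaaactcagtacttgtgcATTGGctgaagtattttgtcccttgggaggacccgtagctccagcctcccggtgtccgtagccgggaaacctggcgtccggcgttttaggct
CCAAT was found in all 4 windows, at -70 and -41 in Psma5, -168 in Psma4, -77 in Psma2 and, on the other strand, -42 in Psmd9. Only Psmd9 of the 4 held TGACNNNGC, at -124 on the other strand and at -77. The window of Psmb10, not shown, held neither motif. Over the 37 proteasome promoters, CCAAT was in 17 (45.9%) and TGACNNNGC in 8 (21.6%), against 37.5% and 12.1% of all 33469 promoters in the table. These matches are a description of letters in the windows.

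The first comparison was between the labelled regions, over all 28 arrays of each. A lower level in such tissue can reflect fewer cells that express the gene or less RNA per cell, and these cannot be told apart here. Proteasome genes were mostly lower under the CA1 label than under CA3, and mostly higher under CA3 than under DG. Of the 40 genes, 7 were higher and 20 lower in labelled CA1 than in labelled CA3 (median difference -0.10, against 0.00 over all probes), where 80.7% of all tested probes were called (39.9% higher, 40.8% lower). Against labelled DG, 18 genes were higher and 10 lower in labelled CA1 (median 0.06), where 72.4% of probes were called (36.3% higher, 36.1% lower). In labelled CA3 against labelled DG, 24 genes were higher and 6 lower (median 0.15, against 0.02 over all probes), where 75.4% of probes were called, 39.3% higher and 36.1% lower. The share of genes called in any pair thus lay near or below that of all probes, and the regions differ in most transcripts. The 3 pairs share arrays, so they are not independent of each other. In all 3 pairs 13 genes were called, in 2 pairs 21, in 1 pair 4, and Psmb5 and Psmc4 in none. The signs were the same in each of the 4 drug and behaviour groups for 23 of the 27 genes called between labelled CA1 and CA3, 27 of 28 between labelled CA1 and DG, and 30 of 30 between labelled CA3 and DG. Without the 10 arrays of low correlation the counts were 9 higher and 20 lower, 19 and 10, and 23 and 6. The shares of all probes called without those arrays are not given here, so these counts are not set against all probes.

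**Figure D1:**
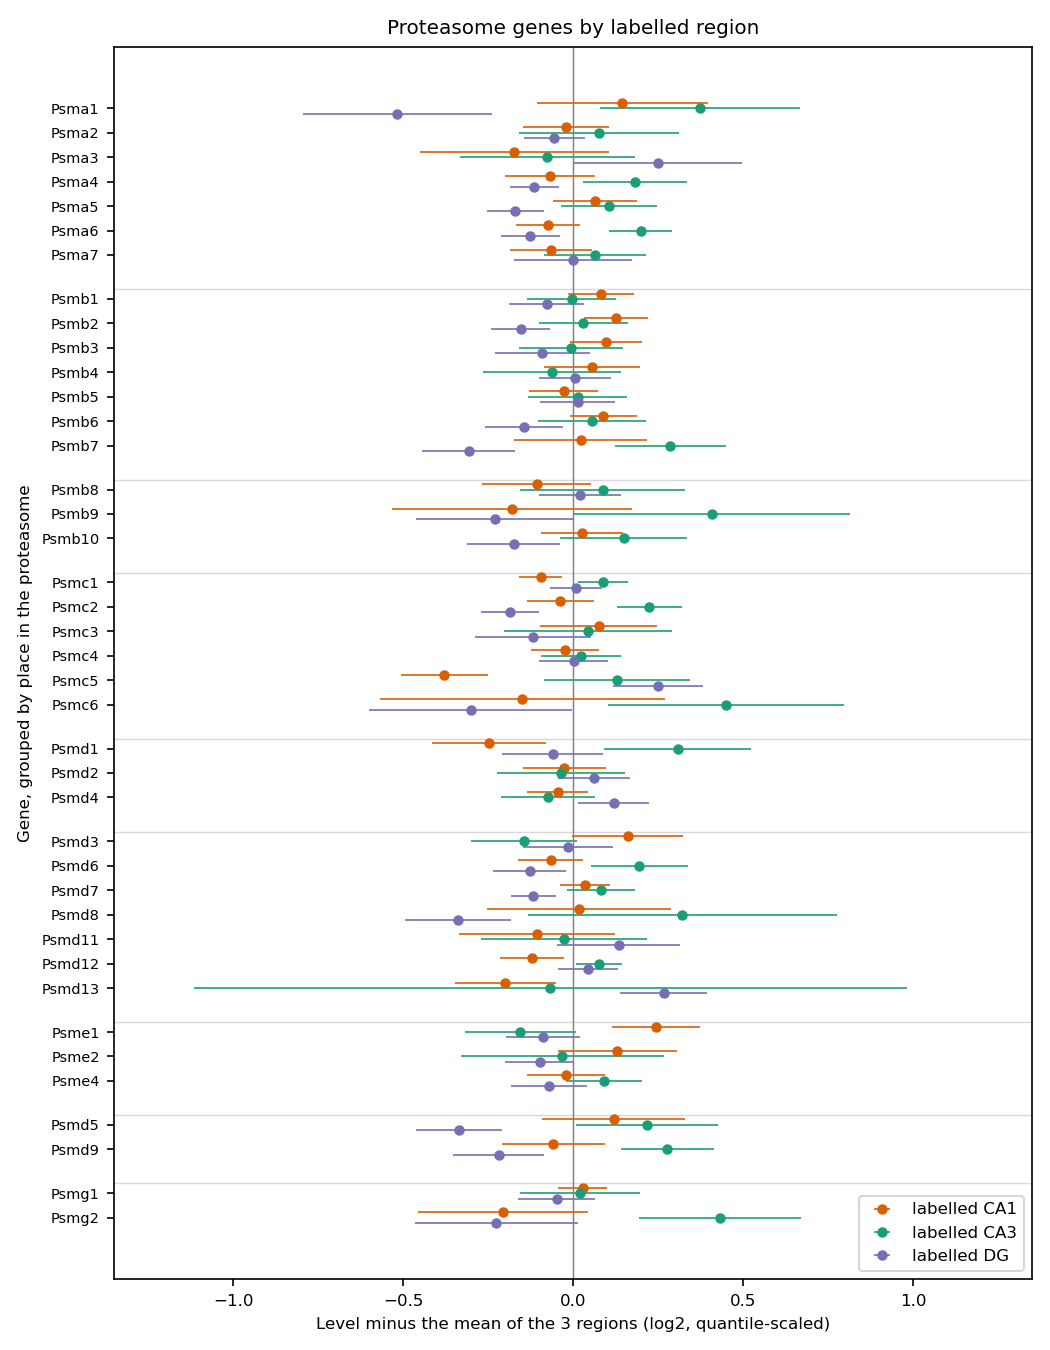
Level of each of the 40 proteasome genes in each labelled region, as the mean over 28 arrays minus the mean of the 3 regions (x axis, log2, quantile-scaled); bars are 1 SD over the 28 arrays, and genes are grouped by place in the complex. Psma1, Psmc6 and Psmg2 lie highest in labelled CA3, Psmc5 lowest in labelled CA1, while Psmb5 and Psmc4 hardly move; the wide bar of Psmd13 in labelled CA3 comes with 1 array at 5.21.

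In the alpha ring, Psma1 had the largest difference of all members. Its levels ran from 8.46 to 9.68 (median 9.18) on arrays labelled CA1, from 8.86 to 10.36 (median 9.36) on those labelled CA3 and from 7.98 to 9.05 (median 8.56) on those labelled DG. Labelled DG was thus lowest, with ranges that still overlapped. The difference was 0.89 ± 0.07 (SE) between labelled CA3 and DG (1.85-fold, limma adjusted p = 3.2e-19) and 0.66 ± 0.07 between labelled CA1 and DG. Psma4, Psma5 and Psma6, the other alpha subunits with clear differences, were higher in labelled CA3 than in DG by 0.30, 0.28 and 0.33. Psma3 went the other way: against labelled DG it gave -0.42 in labelled CA1 (adjusted p = 2.6e-07) and -0.32 in labelled CA3. It was also the least often detected member, on 10 of 28 arrays labelled CA1, 19 labelled CA3 and 28 labelled DG.

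Among the constitutive beta subunits, the clearest was Psmb7, which carries the trypsin-like site. Its levels ran from 11.42 to 12.25 in labelled CA1, 11.92 to 12.68 in CA3 and 11.34 to 11.82 in DG, so that every array labelled CA3 lay above every array labelled DG (difference 0.59 ± 0.04, adjusted p = 3.4e-23). Psmb5, which carries the chymotrypsin-like site, differed by at most 0.04 in any pair. Psmb6, the subunit with the caspase-like site, was lower in labelled DG than in CA1 by 0.23 and than in CA3 by 0.20. The inducible subunits did not move as one. Psmb9 was lower in labelled CA1 than in CA3 (-0.59 ± 0.09, adjusted p = 4.0e-09) and higher in labelled CA3 than in DG by 0.64, but it was detected on 17, 28 and 24 of 28 arrays, in the order CA1, CA3, DG. Psmb8 was lower in labelled CA1 than in either other region (-0.20 and -0.13). The Psmb10 probes disagreed: between labelled CA1 and CA3 the brighter gave -0.12 (adjusted p = 0.0037) and the dimmer 0.21 (adjusted p = 4.7e-07), while both were higher in labelled CA1 and in CA3 than in DG.

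**Figure D2:**
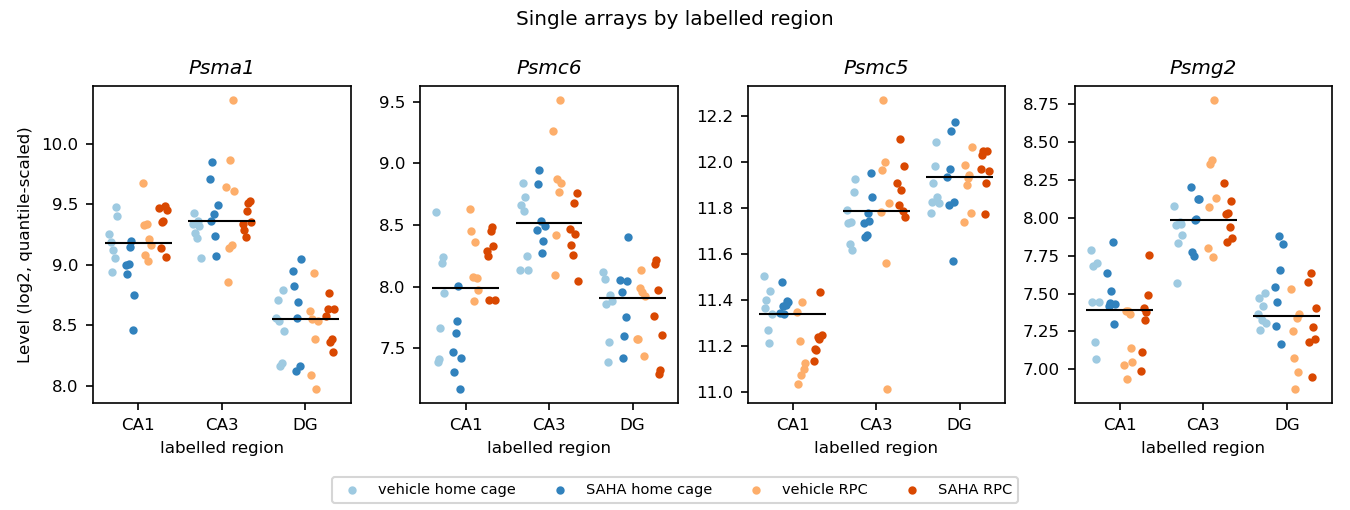
Single arrays for Psma1, Psmc6, Psmc5 and Psmg2 by labelled region (y axis, log2 level, quantile-scaled); colours are the 4 drug and behaviour groups, and the line is the median of 28 arrays. Every Psmc5 point labelled CA1 lies below every point labelled DG; in the other 3 panels the ranges of neighbouring regions overlap.

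Among the ATPases of the regulatory particle, Psmc5 was lowest in labelled CA1 and Psmc6 highest in labelled CA3. Psmc5 ran from 11.04 to 11.50 (median 11.34) in labelled CA1, from 11.01 to 12.27 (median 11.79) in CA3 and from 11.57 to 12.17 (median 11.93) in DG. All 28 arrays labelled CA1 lay below all 28 labelled DG, a lack of overlap seen in 5.41% of all probes. The difference was -0.63 ± 0.04 (adjusted p = 1.3e-22), and that to labelled CA3 was -0.51. Psmc6 had its highest levels in labelled CA3, from 8.04 to 9.51 (median 8.51), against 7.17 to 8.63 (median 7.99) in CA1 and 7.29 to 8.40 (median 7.90) in DG. Its differences were -0.60 ± 0.09 for labelled CA1 against CA3 and 0.75 ± 0.09 for CA3 against DG, with no call between CA1 and DG (0.15, adjusted p = 0.10). Psmc2 was higher on every array labelled CA3 than on any labelled DG (0.41 ± 0.02, adjusted p = 2.8e-25). Psmc4 differed by no more than 0.05 in any pair.

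Of the other regulatory subunits, Psmd1, a scaffold of the base, was lowest in labelled CA1 (-0.55 against CA3 and -0.19 against DG). Psmd4, a ubiquitin receptor, was lower in labelled CA3 than in DG (-0.19 ± 0.03), the second largest called difference in that direction after Psma3. In the lid, Psmd8 was highest in labelled CA3 (0.66 ± 0.08 over DG and -0.30 for CA1 against CA3); without the arrays of low correlation these became 0.44 and -0.11, the latter with adjusted p = 0.088. Psmd3 was highest in labelled CA1, by 0.31 over CA3 and 0.18 over DG. Psmd11 was lower in labelled CA1 than in DG (-0.24), and its difference of -0.16 between labelled CA3 and DG was -0.08 (adjusted p = 0.18) without those arrays. Psmd13 gave -0.47 for labelled CA1 against DG (adjusted p = 0.0067) and -0.13 against CA3 (adjusted p = 0.44). Without those arrays the same differences were -0.43 and -0.39, both called (adjusted p = 5.4e-16 for the second). Among the removed arrays Psmd13 read 5.21 on 1 labelled CA3; a fit without that array alone was not made.

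Of the alternative caps, Psme1 and Psme2 were highest in labelled CA1. Psme1, a subunit of the interferon-inducible cap, exceeded CA3 by 0.40 ± 0.04 (adjusted p = 4.3e-16) and DG by 0.33, and its partner Psme2 did so by 0.16 and 0.23 (the first not called with median scaling or the authors' z-scores), while Psme4, the large single-subunit cap, was lower in labelled CA1 than in CA3 (-0.11). Of the 4 assembly chaperones, 3 were higher in labelled CA3 than in DG, where 39.3% of all probes were. Psmd5 and Psmd9, chaperones of the ATPase ring, were higher in labelled CA3 than in DG by 0.55 and 0.50, and Psmd5 did so without overlap, as did Psmb7 and Psmc2 (5.36% of all probes). Psmg2, which with Psmg1 builds the alpha ring, ran from 6.94 to 7.84 (median 7.39) in labelled CA1, 7.57 to 8.77 (median 7.99) in CA3 and 6.87 to 7.88 (median 7.35) in DG. It was therefore higher in labelled CA3 than in both others, by 0.66 ± 0.06 over DG and with a difference of -0.64 ± 0.06 for CA1 against CA3. Its partner Psmg1 differed by at most 0.08.

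Cell type markers moved between the labelled regions as well. Oligodendrocyte genes were lower in labelled CA1 than in CA3 for 11 of 13 measured (1 higher, median -1.47) and than in DG for 12 of 13. Their summed level ranged from 13.59 to 14.89 in labelled CA1, 14.53 to 15.81 in CA3 and 14.68 to 15.63 in DG. Of 10 astrocyte genes, 10 were lower in labelled CA3 than in DG and 8 were lower in labelled CA1 than in DG, with summed levels of 15.80 to 16.00 in CA3 and 16.16 to 16.37 in DG. For microglia, 9 of 11 genes were lower in labelled CA3 than in DG and 10 of 11 lower in CA1 than in DG. Of 5 endothelial genes, 3 were lower in labelled CA3 than in DG and 4 lower in CA1 than in DG, with summed levels of 11.41 to 12.32 in CA1, 11.27 to 11.71 in CA3 and 12.17 to 12.73 in DG. Of 9 interneuron genes, 7 were lower in labelled CA1 than in CA3 and 6 lower than in DG, with median summed levels of 13.47, 14.08 and 14.40 in the order CA1, CA3, DG. The part of these cells in the proteasome differences was not tested.

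Genes that work with the proteasome were taken from a list of 31, of which 18 were measured. In labelled CA3 against DG, 11 were higher and 4 lower (median 0.13), where 75.4% of all probes were called. In labelled CA1 against CA3, 3 were higher and 9 lower, where 80.7% of probes were called, and in labelled CA1 against DG 7 were higher and 4 lower, where 72.4% were. Uchl5, a deubiquitinase of the regulatory particle, gave -0.66 ± 0.04 for labelled CA1 against CA3 and 0.73 ± 0.04 for CA3 against DG. Usp14, another such deubiquitinase, gave -0.39 and 0.46 in the same comparisons. Uba6, an enzyme that activates ubiquitin, gave -0.63 and 0.62. Rad23b, which shuttles ubiquitinated proteins to the proteasome, gave -0.21 and 0.43, and Ubqln2, another shuttle, -0.35 and 0.27. Nfe2l2, which encodes a transcription factor of proteasome genes, was lower in labelled CA1 than in CA3 (-0.56) and DG (-0.66), and Nploc4, a cofactor of the unfolding ATPase Vcp, was higher in CA1 than in CA3 by 0.75.

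The size and partly the direction of these region counts depended on how arrays were scaled to each other. The proteasome genes are bright: 28 of the 40 (70%) were among the 2281 tested probes of highest mean signal, the brightest 20%. Without any scaling, 40 of 40 genes were lower in labelled CA1 than in CA3 (median -0.70, where all probes had -0.42) and 34 were lower and 0 higher in labelled CA1 than in DG (median -0.32, all probes -0.42). Scaling each array to its median gave 3 higher and 30 lower for CA1 against CA3, 28 and 3 for CA1 against DG, and 37 and 1 for CA3 against DG. Scaling to the mean of probes detected on all arrays gave 5 and 25, 22 and 8, and 30 and 1. Cyclic loess gave 7 and 23, 18 and 10, and 25 and 6, and the authors' z-scores 8 and 18, 24 and 8, and 29 and 2. The shares of all probes called under these alternative scalings are not given here. The counts therefore do not show a change particular to proteasome genes. For labelled CA3 against DG the median of the 40 genes was 0.15 with quantile scaling, 0.14 with cyclic loess, 0.25 with the detected mean, 0.47 with the median and 0.39 with none. The median of these 2281 probes moved with it, and the distance between the medians lay between 0.13 and 0.15. For labelled CA1 against CA3 this distance was -0.10 to -0.07, and for labelled CA1 against DG it was 0.04 to 0.06. Median scaling, the detected mean and no scaling differ only by a constant per array, which shifts every probe alike. The distances are therefore equal by construction among these, and only quantile scaling and cyclic loess could change them.

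**Figure D3:**
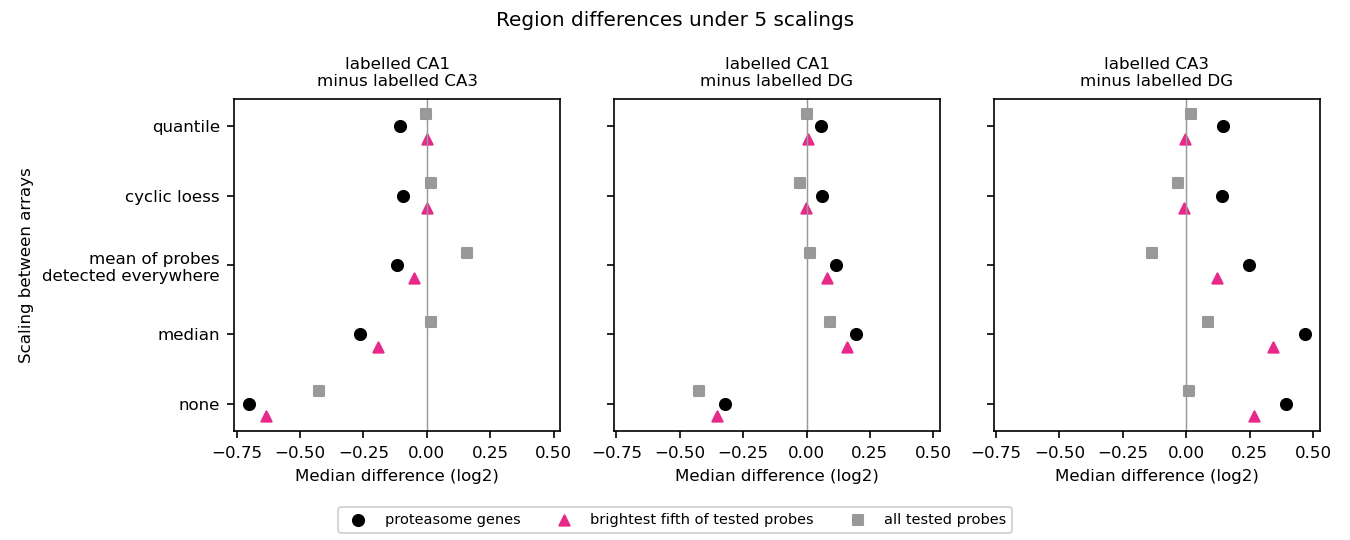
Median log2 difference between labelled regions (x axis) for the 40 proteasome genes, for the 2281 brightest tested probes and for all tested probes, under 5 ways of scaling the arrays (y axis). With no scaling the proteasome median for labelled CA1 minus CA3 falls to -0.70 and that for labelled CA1 minus DG turns to -0.32. The proteasome and bright-probe medians shift together. Among median scaling, the detected mean and no scaling this is so by construction, because these differ only by a constant per array.

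Under each scaling, Psma1 and Psma3 kept the sign of their differences from labelled DG, and Psmc6 and Psmg2 that of their differences between labelled CA1 and CA3, although Psma1 in labelled CA1 against DG was not called without scaling (adjusted p = 0.11). In contrast, Psmd4 for labelled CA3 against DG turned from -0.19 to 0.17 with median scaling and to 0.09 with none, and Psmd11 turned from -0.16 to 0.23 with median scaling, 0.16 with none and 0.01 with the detected mean. Set against the median of all probes under the same scaling, Psmd4 lay 0.08 above it and Psmd11 0.15 above it in each of these cases. The distances are equal by construction, because these settings differ only by a constant per array. With quantile scaling both genes lay below the median of all probes, so their place relative to that median also turned. Without scaling, Psme1, Psme2 and Psmd3 read -0.27, -0.32 and -0.32 in labelled CA1 against CA3, and Psmd5 and Psmd8 -0.06 and -0.09 in CA1 against DG, but all probes shifted by -0.42 in both pairs. Relative to that shift the 5 genes were still higher in labelled CA1, by 0.16, 0.10, 0.10, 0.36 and 0.33.

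The second question was whether SAHA changed proteasome transcripts. No proteasome gene was called for SAHA against vehicle, in any labelled region, in home cage or in RPC rats. Few probes of any kind were called. In home cage rats, 0.00877% of tested probes were called under the CA1 label, 0.00877% under CA3 and 0.0263% under DG. In RPC rats these shares were 0.0438%, 0% and 0.0789%. The median standard error of a gene's difference was 0.06 for labelled CA1, 0.09 for CA3 and 0.06 for DG. At an unadjusted p under 0.05 there were 4 genes in home cage rats labelled CA1, all lower with SAHA (6.85% of all probes), and 5 in RPC rats labelled CA1, all higher (10.2% of all probes). Under the CA3 label there were 0 and 2 (0.5% and 5.06% of probes), and under DG 0 and 0 (6.34% and 6.28%).

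**Figure D4:**
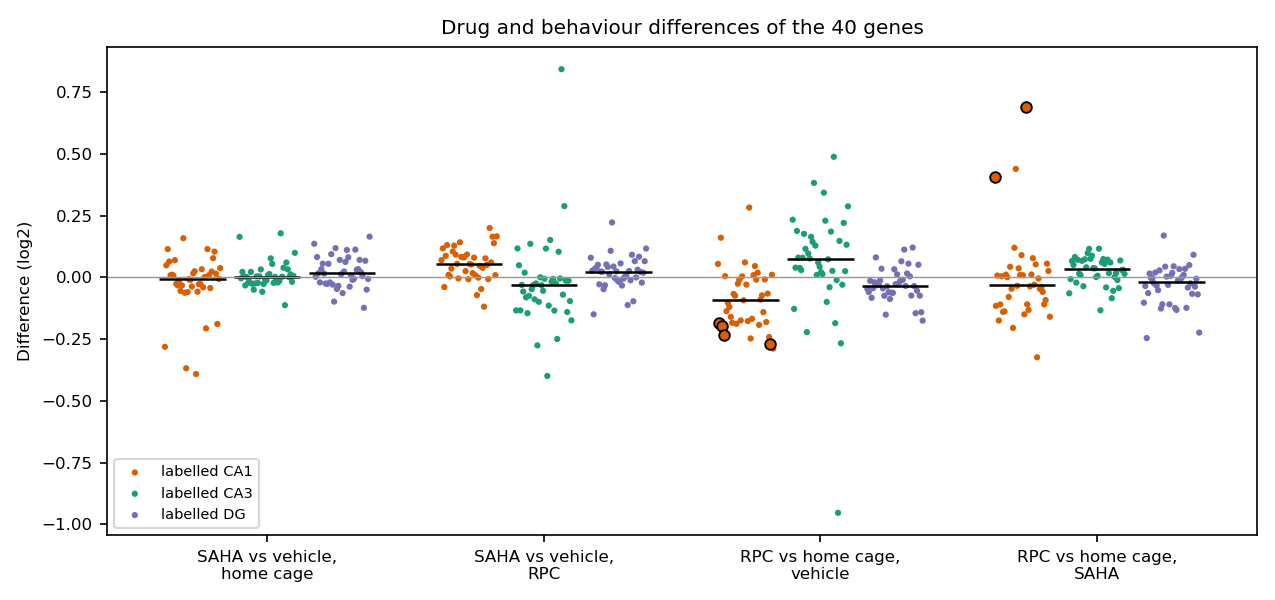
Differences (y axis, log2) of the 40 proteasome genes for SAHA against vehicle and for RPC against home cage, by labelled region; each point is a gene, the line is the median, and outlined points were called by limma. Outlined points are found in labelled CA1 alone: 4 below 0 in vehicle rats and 2 above 0 in SAHA rats; the lowest point, in labelled CA3, is Psmd13.

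In home cage rats labelled CA1, the smallest p-values were those of Psma1 (-0.28 ± 0.11, adjusted p = 0.67), Psmd9 (-0.19 ± 0.07, adjusted p = 0.67) and Psmc6 (-0.39 ± 0.16, adjusted p = 0.68). For Psmc6 the SAHA arrays ran from 7.17 to 8.01 (median 7.47), and 6 of 7 lay below the vehicle mean. In RPC rats labelled CA1 they were those of Psma5 (0.13 ± 0.05, adjusted p = 0.29), the dimmer Psmb10 probe (0.22 ± 0.08, adjusted p = 0.31) and Psmb3 (0.13 ± 0.05, adjusted p = 0.37). For Psma5, 4 of 7 SAHA arrays lay above all 7 vehicle arrays. Under the CA3 label the smallest p-values were those of Psma1 in home cage rats (0.16 ± 0.15) and Psmc6 in RPC rats (-0.40 ± 0.17, adjusted p = 0.66), and under DG those of Psme4 in home cage rats (-0.12 ± 0.06, adjusted p = 0.81) and Psmb9 in RPC rats (0.22 ± 0.12, adjusted p = 0.82). The inducible subunits Psmb8, Psmb9 and Psmb10 lay between -0.37 and 0.22 in the 6 comparisons, and Psme1 and Psme2 between -0.07 and 0.29. Psmd13 gave 0.84 ± 0.52 in RPC rats labelled CA3 and 0.14 without the arrays of low correlation.

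The interaction of drug and behaviour, which tests whether the SAHA difference changes with the session, called 0 of 40 genes in each labelled region, where 0.00877% of probes were called under CA1, 0% under CA3 and 0.00877% under DG. An unadjusted p under 0.05 was reached by 3 genes under CA1, 0 under CA3 and 1 under DG, beside 8.24%, 2.13% and 2.15% of all probes. In labelled CA1, Psmd9 had the smallest p-value (0.33 ± 0.10, unadjusted p = 0.0039, adjusted p = 0.58), followed by Psma1 (0.35 ± 0.15) and Psmb3 (0.16 ± 0.07). In labelled CA3 it was Psmc6 (-0.48 ± 0.24, adjusted p = 0.89), and in labelled DG Psmb8 (0.21 ± 0.09, adjusted p = 0.999).

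The last comparison was between RPC and home cage rats. In vehicle rats under the CA1 label, 4 of the 40 genes fell with the session, 3 of them alpha subunits, and 0 rose. Among all tested probes 5.3% were called, 2.12% higher and 3.17% lower. In all, 30 of the 40 genes were lower in RPC rats, with a median difference of -0.09 against -0.02 over all probes. The median of the brightest probes is not given for this comparison, so whether bright probes shared this shift is not settled here. Of the 40 genes, 17 had an unadjusted p under 0.05, all of them lower (22.4% of all probes in either direction). By place in the complex, the medians were -0.14 for the 7 alpha subunits, -0.12 for the 7 constitutive beta subunits, -0.01 for the 6 ATPases and -0.07 for the 7 lid subunits.

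Psma5, an alpha subunit, ran from 11.72 to 11.83 (median 11.79) in vehicle home cage rats and from 11.45 to 11.65 (median 11.56) in vehicle RPC rats. All 7 RPC arrays lay below all 7 home cage arrays, and the difference was -0.23 ± 0.05 (adjusted p = 0.0046). With SAHA the same gene ran from 11.70 to 11.87 in home cage rats and from 11.49 to 11.83 in RPC rats. Psma4, also of the alpha ring, ran from 11.22 to 11.55 (median 11.32) in home cage rats and from 11.05 to 11.32 (median 11.19) in RPC rats. Of the RPC arrays, 6 of 7 lay below every home cage array (-0.20 ± 0.05, adjusted p = 0.021). With SAHA, Psma4 gave -0.17 (adjusted p = 0.064). Psma2, another alpha subunit, ran from 11.88 to 12.20 (median 12.05) and from 11.74 to 12.03 (median 11.90). These groups overlapped, with 3 of 7 RPC arrays below all home cage arrays (-0.18 ± 0.05, adjusted p = 0.035). Psmd9, the chaperone of the ATPase ring, ran from 8.29 to 8.51 (median 8.44) in home cage rats and from 8.01 to 8.26 (median 8.19) in RPC rats. Its groups did not overlap (-0.27 ± 0.07, adjusted p = 0.029). A lack of overlap was found for 2 of the 40 genes and for 1.32% of all probes.

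**Figure D5:**
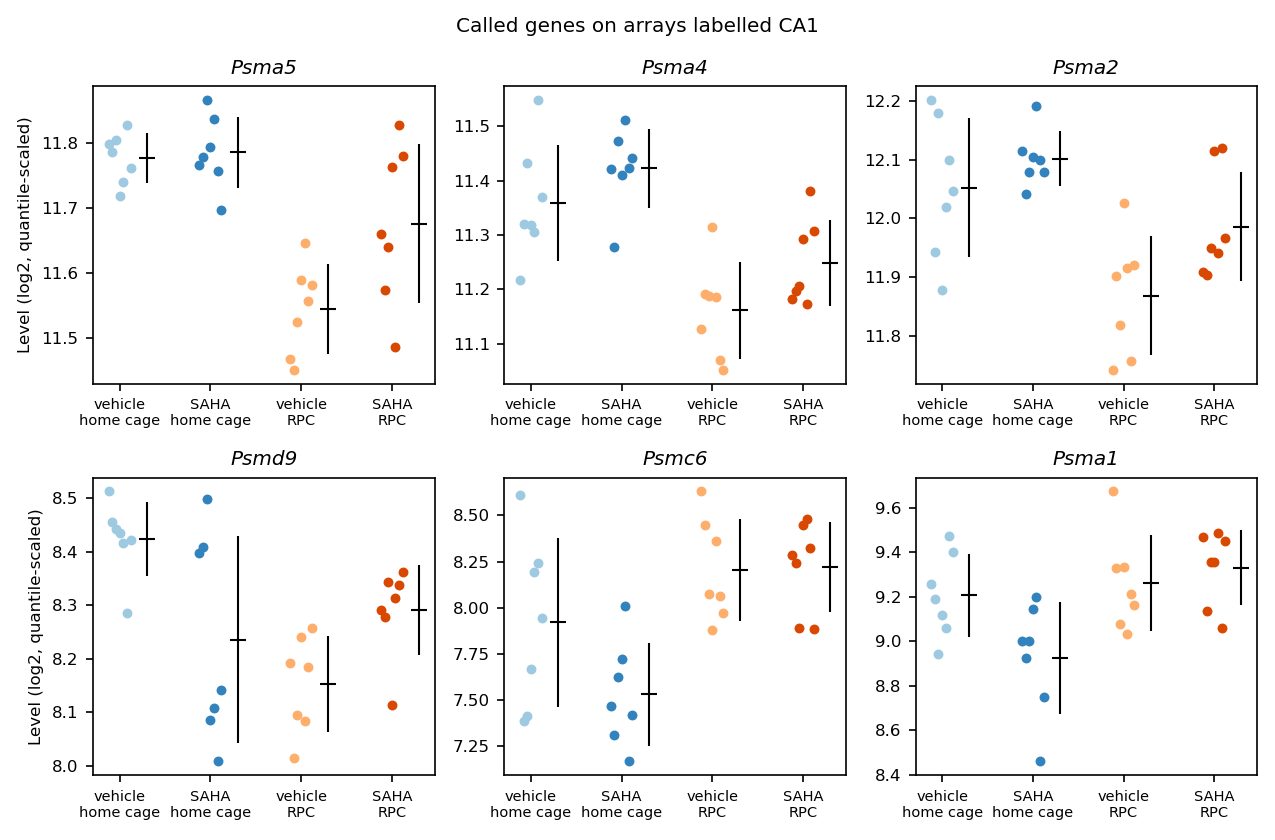
Single arrays labelled CA1 for the 6 called genes in the 4 groups of 7 arrays (y axis, log2 level, quantile-scaled); the cross lines are the mean and 1 SD. Psma5, Psma4, Psma2 and Psmd9 are lower in vehicle RPC than in vehicle home cage rats, and Psmc6 and Psma1 are higher in SAHA RPC than in SAHA home cage rats.

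The dimmer Psmb10 probe was also called (-0.29 ± 0.08, adjusted p = 0.027), while the brighter probe, which stands for the gene in the counts, was not (-0.17 ± 0.06, adjusted p = 0.075). Psmd1 was just outside (-0.25 ± 0.08, adjusted p = 0.051). The inducible Psmb8 and Psmb9 gave -0.03 and -0.01, and the cap subunits Psme1 and Psme2 -0.01 and -0.18 (adjusted p = 0.20 for Psme2). Of the 18 partner genes, 1 was called: Pomp, the chaperone that matures the beta ring, fell by 0.41 ± 0.07 (adjusted p = 0.0028). In SAHA rats Pomp gave -0.05 (adjusted p = 0.84), and the interaction for Pomp was 0.36 with adjusted p = 0.58. Of 13 immediate early genes, which mark neuronal activity, 8 rose and 1 fell in the same vehicle comparison, among them Fos by 1.11 and Arc by 0.98. Of the cell type markers, 2 of 10 astrocyte genes rose, Slc4a4 by 0.64 and Gja1 by 0.20, with summed levels of 15.92 to 16.15 in home cage and 16.01 to 16.18 in RPC rats, and 1 of 8 CA1 genes rose (Pex5l, by 0.79). No gene of the CA3, granule cell, microglia, oligodendrocyte, endothelial or interneuron lists was called. The part of astrocytes in the proteasome differences was not tested.

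The vehicle result rested on single arrays for its count. Leaving out each of the 14 arrays in turn gave between 1 and 7 called genes, while the share of all probes called ran from 2.51% to 5.88%, with 1 without vehicle RPC array 6, 2 without vehicle home cage array 6 or vehicle RPC array 2, and 7 without vehicle home cage array 4. Psma5 was called each time. Without the arrays of low correlation, Psma5 (-0.21, adjusted p = 0.023) and Psmd9 (-0.30, adjusted p = 0.034) were called, and Psma4 (adjusted p = 0.069) and Psma2 (adjusted p = 0.10) were not. Without scaling the 4 calls were lost: the median of the 40 genes was then 0.04 and that of all probes 0.12.

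In SAHA rats under the CA1 label, 2 genes rose in RPC against home cage rats and 0 fell, where 2.17% of probes were called, 1.52% higher and 0.649% lower. Psmc6, an ATPase, ran from 7.17 to 8.01 (median 7.47) in SAHA home cage rats and from 7.89 to 8.48 (median 8.28) in SAHA RPC rats, and 5 of 7 RPC arrays lay above all home cage arrays (0.69 ± 0.16, 95% interval 0.36 to 1.03, adjusted p = 0.022). Psma1, an alpha subunit, ran from 8.46 to 9.20 (median 9.00) and from 9.06 to 9.49 (median 9.36), with 5 of 7 RPC arrays above all home cage arrays (0.41 ± 0.11, adjusted p = 0.041). The groups of both genes overlapped. In vehicle rats the session gave 0.28 for Psmc6 (adjusted p = 0.31) and 0.05 for Psma1 (adjusted p = 0.80). The interaction did not call either gene (adjusted p = 0.65 and 0.59), so a difference between drug groups is not shown. The SAHA home cage arrays in this comparison are the ones in which both genes were low against vehicle home cage arrays, so those values are not independent. Psmb9 gave 0.44 ± 0.17 (adjusted p = 0.18) and Psmd11 -0.32 ± 0.10 (adjusted p = 0.099). Without the arrays of low correlation these became 0.55 (adjusted p = 0.016) and -0.40 (adjusted p = 0.013), beside 0.77 for Psmc6 and 0.45 for Psma1, which gives 4 called genes, where 4.74% of probes were called. With array weights 3 genes were higher and 5 lower, so that the balance of directions turned, where 4.71% of probes were higher and 2.80% lower. Leaving out single arrays gave 0 to 3 called genes (0.798% to 2.93% of probes), with 0 without SAHA home cage array 7 or SAHA RPC array 5. In this comparison 8 of 13 immediate early genes rose, and no cell type marker was called.

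Under the CA3 and DG labels no proteasome gene was called for the session. The shares of probes called were 0.0175% in vehicle and 0.0263% in SAHA rats for CA3, and 0.307% and 1.33% (1.12% higher and 0.21% lower) for DG. In vehicle rats labelled CA3, 7 genes had an unadjusted p under 0.05, 6 of them higher (19.3% of all probes), with the smallest p-values for Psmb2 (0.18 ± 0.06), Psmd6 (0.19 ± 0.07) and Psma4 (0.19 ± 0.08), all at adjusted p = 0.25. Without the arrays of low correlation these were 0.04, 0.07 and 0.00. Another fit took all 84 arrays, with presumed rats (arrays sharing drug, behaviour and replicate number) as a random block. It called 6 genes in vehicle rats labelled CA3, 4 higher and 2 lower, where it called 20.2% of all probes. The estimated correlation within presumed rats was -0.011. Unlike the fits per region, this fit shares each probe's spread over all labelled regions. Which of these features changed the calls was not tested. In SAHA rats labelled CA3 no gene had an unadjusted p under 0.05 (3.86% of probes), and the smallest p-value was that of Psmd12 (-0.05 ± 0.04). Under the DG label 3 genes did so in vehicle rats, all lower, and 3 in SAHA rats, 1 higher and 2 lower (8.23% and 13.6% of probes). In vehicle rats labelled DG the smallest were Psme2 (-0.14 ± 0.06, adjusted p = 0.47) and Psmg1 (-0.14 ± 0.06), and in SAHA rats labelled DG Psmb8 (0.17 ± 0.06, adjusted p = 0.21), Psmc2 (-0.11 ± 0.05) and Psmb6 (-0.13 ± 0.06).

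Whether the session's difference itself varied among the labelled regions was tested with limma's moderated F test. In vehicle rats 5 of the 40 genes passed, where 5.52% of all probes passed: Psma4 (adjusted p = 0.010), Psmb2 (0.032), Psma5 (0.037), Psmd1 (0.043) and Psmg2 (0.049). Psma4 gave -0.20 in labelled CA1, 0.19 in CA3 and -0.08 in DG. Without the arrays of low correlation, 4 of which are vehicle RPC arrays labelled CA3, none of the 5 passed (adjusted p from 0.48 to 0.81), and 2 of the 11403 probes did. In SAHA rats 0 genes passed (0.0438% of probes), and without those arrays Psmc6 (adjusted p = 0.0088) and Psmb9 (adjusted p = 0.039) did, 2 of 40, where 5.38% of all probes passed. For SAHA against vehicle 0 genes passed in home cage and in RPC rats (0% of probes in each).

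RefSeq lists 52 rat genes named as copies of proteasome genes, and 16 of the 40 measured genes have at least 1, with 10 for Psmb3, 5 for Psma6, 2 for Psma2 and Psmc6 and 1 for Psma5. The probe sequences were not used here, so whether a probe also reads a copy is not settled for these genes.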

How the data were processed

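Bead signals and detection p-values of 84 Illumina arrays were used as deposited. The authors exported intensity per probe with GenomeStudio 2011.1, per the submitters' processing notes; the summary of beads is not given in the sources used here, nor is the slide. Deposited intensities ran from 36 to 41948. In the deposited detection p-values, 29.8% of entries are written as 0.0100, and the next smallest above 0 is 0.0012, so 0.0100 was read as 0. The second deposited table holds a score per probe; it matched a z-score of the log signals within each array (the same for any log base) to within 0.013, with no step stated in the file headers, and served as an alternative. Here intensities were corrected with normexp on the detection p-values (offset 16), turned to log2 and quantile-scaled between arrays with limma 3.58.1 in R 4.3.3. Each labelled region was fitted with its 4 groups of 7 arrays (lmFit, eBayes with an intensity trend); regions were compared, and effects tested for a difference among regions by a moderated F test, in a fit of all 84 arrays. The limma fit was tested on simulated data only for RPC against home cage in vehicle rats labelled CA1. The region comparison, the F test, the interaction and the alternatives were not simulated. Genes were named by rule: every called member, otherwise those of smallest p, the 3 largest region differences in each direction, Psmb8, Psmb9, Psmb10, Psme1 and Psme2, and up to 6 partner genes. Further genes named for their role or for a flat pattern were chosen after the values were seen, as were the F test without arrays of low correlation and the comparison with the brightest probes. The members and gene lists were chosen with earlier results of these data known. An array was taken as of low correlation when its median correlation with its region lay 5 median absolute deviations below the median. The labels do not say that a replicate number marks 1 rat in all regions. Arrays of the same drug, behaviour and number under different region labels did not deviate together. Their mean correlations, over 28 pairs each, were 0.035 (CA1 and CA3), -0.029 (CA1 and DG) and -0.035 (CA3 and DG). Same-numbered arrays of different groups under the same label, which are different rats, gave means from -0.21 to 0.17. Pairs below 0 were found in each comparison. No block was used in the results given first. Alternatives were the scalings, background correction, filters, array weights, replicate blocks and arrays left out. With 7 arrays per group, the number of arrays limits the precision.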

Additional observations from a re-analysis of the deposited data

Results flagged for a closer look

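Dixon's test was run for each of the 41 probes in each of the 12 groups of 7 arrays, 492 tests in all. In 37 of the 492 tests a level lay apart from the other 6 arrays of its group, where chance gives about 1 test in 20. Several of these levels fell on the same arrays. On vehicle RPC array 6 labelled CA3 they were Psmd13 (5.21), Psme2 (7.20), Psma2 (10.97), Psmb4 (12.14) and Psmd7 (12.47). On SAHA RPC array 4 labelled CA3 they were Psmd13 (9.60), Psmg1 (11.42), Psma7 (12.14), Psmc4 (12.23) and Psmd6 (13.04). On vehicle home cage array 3 labelled CA3 they were Psma7 (12.05), Psmc4 (12.26) and Psmd6 (13.04). Vehicle RPC array 1 labelled DG was apart for the dimmer Psmb10 probe (9.26), Psma4 (11.31) and Psma2 (12.19), and vehicle RPC array 1 labelled CA1 for Psmd8 (6.70) and Psmd13 (9.76). SAHA RPC array 4 labelled DG was apart for Psmd13 (10.60) and Psmc2 (11.38).

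The others stood alone on their arrays. Among arrays labelled CA1, Psmb9 read 5.57 on vehicle home cage array 2, Psmg1 10.98 on array 3, Psmc1 12.86 on array 4 and Psmd9 8.29 on array 6 of that group. Psmc5 read 11.48 on SAHA home cage array 2 and 11.43 on SAHA RPC array 6, Psmd9 8.11 on SAHA RPC array 4 and Psmg1 11.28 on SAHA RPC array 7. Under the CA3 label, Psmd12 read 11.34 on SAHA home cage array 7 and Psmd4 11.20 on vehicle RPC array 1. Under the DG label, Psma7 read 11.97 and Psmd9 7.86 on SAHA home cage arrays 6 and 7, and Psme1 10.88 on vehicle home cage array 3. Psma3 read 6.65 and Psmd8 6.30 on SAHA RPC arrays 2 and 3. On vehicle RPC arrays labelled DG, Psmd7 read 11.79 on array 2 and Psmd8 5.64 on array 3.

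The RPC difference of vehicle rats varied among labelled regions in limma's F test for Psma4 (adjusted p = 0.0101), Psmb2 (0.0322), Psma5 (0.0372), Psmd1 (0.0428) and Psmg2 (0.0488), with the arrays of low correlation included.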

How the results depend on the processing

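Of 293 recomputed gene counts, 252 were within 1.5 times the count first given. A count of 0 that stayed at 0 is included, and most of the 252 are of this kind. The share therefore does not describe how stable the counts above 0 were. Where a count below has no share of all probes beside it, it does not show whether all probes moved alike. For RPC against home cage in vehicle rats labelled CA1 (4 called), no scaling gave 0, cyclic loess 2, the detected mean 2 and no detection filter 2. A stricter filter gave 7, array weights 10 and the removal of arrays of low correlation 2. With single arrays left out the count was 1 to 7 (2.51% to 5.88% of all probes). In SAHA rats labelled CA1 (2 called), no scaling gave 0, the z-scores 1, no filter 1 and array weights 8 (3 higher, 5 lower). The fit of all 84 arrays with presumed rats as a random block gave 1, and the removal of arrays of low correlation 4. Leaving out single arrays gave 0 to 3 (0.798% to 2.93% of all probes). In vehicle rats labelled CA3 (0 called), the fit of all 84 arrays with presumed rats as a random block gave 6. Region counts higher moved for labelled CA1 against CA3 (7) to 3 with median scaling and 0 with none, for CA1 against DG (18) to 28 and 0, and for CA3 against DG (24) to 37 with median scaling. Counts lower moved for CA1 against CA3 (20) to 40 with none, for CA1 against DG (10) to 3 with median scaling and 34 with none, and for CA3 against DG (6) to 1 with median scaling, with none and with the detected mean, and to 2 with the z-scores. The F test's counts moved without the arrays of low correlation from 5 to 0 in vehicle and from 0 to 2 in SAHA rats, as the share of all probes moved from 5.52% to 0.0175% and from 0.0438% to 5.38%. Signs turned for Psme2 (-0.32), Psmd3 (-0.32) and Psme1 (-0.27) in CA1 against CA3 and for Psmd8 (-0.088) and Psmd5 (-0.059) in CA1 against DG, all without scaling, where all probes shifted by -0.42 in both pairs, and in CA3 against DG for Psmd4 (0.17 with median scaling, 0.091 with none) and Psmd11 (0.23, 0.16 and, with the detected mean, 0.013). Apart from the arrays removed or added, the cause of these changes was not tested. With the replicate number as a block, 3 genes were called in vehicle rats labelled CA1 (Psma5, Psma4 and Psmd9) and 2 in SAHA rats (Psmc6 higher, Psmd11 lower), the numbers being shared by name alone, and the block left every other count of called genes for drug and session at 0. Psma5 in vehicle rats lost its call in 1 of 27 alternatives (no scaling), Psmd9 in 8 and Psma2 in 17; Psmc6 in SAHA rats in 4 and Psma1 in 14. Levels near background (Psma3, Psmb9, Psmd8) limit what can be read for those genes.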
